A study of Mus musculus with 3 samples.

Results

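The genes described here are 9 that define macrophages or set their identity: the receptor gene Csf1r, the surface and cytoplasmic marker genes Adgre1 and Aif1, and the transcription factor genes Spi1, Fli1, Cebpa, Maf, Runx1 and Mitf. They were picked by symbol, on no threshold of a measured value but with earlier results of these data known, and make up 9 of 55536 annotated genes. They were measured by sequencing ribosome-depleted total RNA of the cytosol of mouse macrophages, primary cells of strain C57BL/6J that are grown from bone marrow precursors in culture. All 3 libraries belong to a single group: cells held for 12 h in 100 ng/ml Lipid A (the membrane anchor of bacterial endotoxin, a ligand of Toll-like receptor 4), kept for 12 h after its removal, then given 100 ng/ml again for 30 min. The 3 biological replicates share a donor entry, age and sex were not recorded, and 1 µg of RNA entered each library. Untreated cells, other times and other fractions were not analysed here, so the values are levels after this treatment and not responses to it.

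Csf1r encodes the receptor tyrosine kinase through which CSF1 and interleukin 34 keep macrophages alive and dividing. PU.1, the product of Spi1, is an ETS-family pioneer factor that opens enhancers of myeloid genes, Csf1r among them, together with C/EBP and RUNX proteins that bind nearby. The levels of these factors help to separate macrophages from neutrophils, B cells and osteoclasts. The RNA came from bulk cultures, so fewer cells that express a gene and less RNA per cell cannot be told apart.

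Depth ranged between 28759407 and 54709008 expected counts in annotated genes, with replicate 1 the shallowest. Each library was quantified by the authors in 2 ways, and the resulting tables are here called by the layout of their columns, RSEM and kallisto, and levels below are from the RSEM-layout table unless the other is named. All 12 macrophage marker genes of a fixed list had at least 1 TPM (a level corrected for transcript length and scaled to the same total in each library) in every library, with summed levels of 7784, 6783 and 7610 TPM in replicates 1, 2 and 3. Lists for mast cells, dendritic cells and melanocytes had 0 of 6 detected genes each. Among 10 neutrophil and precursor markers only S100a8 and S100a9 were detected, and Ly6g and Retnlg had 0 counts. Of 8 lymphocyte markers only Cd4, at 15.5 ± 1.26 TPM, was detected, of 5 megakaryocyte markers only Pf4, at 91.1 ± 24.0 TPM, and of 6 endothelial and stromal markers only Kdr, at 4.25 ± 2.62 TPM (SD, n = 3). The macrophage list and its summed levels include Csf1r, Adgre1 and Aif1, which are also members described here. The markers of the labelled cell type were thus all present, and each other list had at most 2 genes above the detection level.

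All 9 genes were detected at 1 TPM or more in every library, against 17.2% of all annotated genes and 41.2% of nuclear protein-coding genes. All 9 also lay above 8.30 TPM, the median of the 9068 detected nuclear protein-coding genes. Their mean levels spanned 61.6-fold. Adgre1 was the highest, at 632 ± 76.8 TPM (SD, n = 3), and ranked 41 among those 9068 genes. Aif1 ranked 65, Csf1r 319, Spi1 423 and Maf 565. Fli1 ranked 1856, Cebpa 2529, Mitf 2921 and Runx1 3935. The 2 marker genes thus stood at the top of the order, Csf1r and Spi1 (104 ± 7.73 TPM) lay close together, with Spi1 the higher in replicate 2, and the other transcription factors spread down to Runx1 at 10.3 ± 0.407 TPM.

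**Figure D1:**
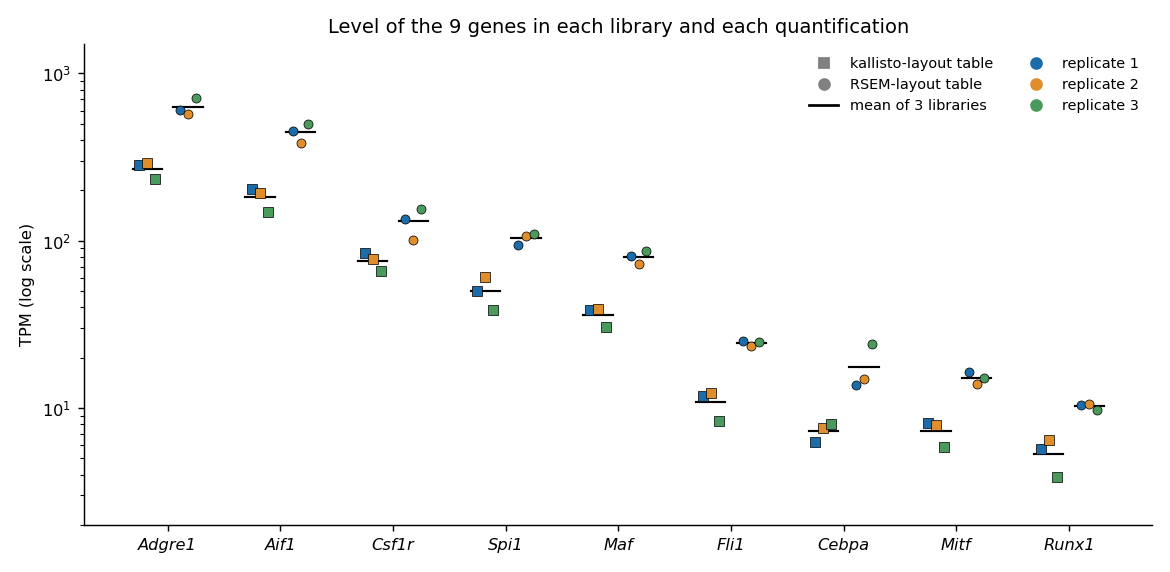
TPM (log axis) of each gene in each library, with squares for the kallisto-layout table, circles for the RSEM-layout table, colours for replicates and a line at each mean of 3 libraries. In the RSEM-layout table the levels run from Adgre1 at 632 TPM to Runx1 at 10.3 TPM, and every gene is lower in the kallisto-layout table.

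Neighbours in this order were compared within each library as differences of log2(TPM + 1), and a difference was called when it had 1 sign in 3 of 3 libraries and exceeded 3 SD. The smallest p that 3 libraries allow in an exact two-sided sign-flip test is 0.25. By this rule 4 of 8 neighbour pairs were separated. Adgre1 exceeded Aif1 by 0.51 ± 0.071, Aif1 exceeded Csf1r by 1.78 ± 0.13, Maf exceeded Fli1 by 1.67 ± 0.094 and Mitf exceeded Runx1 by 0.51 ± 0.12 (log2 units, SD, n = 3). The pairs Csf1r and Spi1 (0.31 ± 0.34), Spi1 and Maf (0.37 ± 0.16), Fli1 and Cebpa (0.49 ± 0.41) and Cebpa and Mitf (0.17 ± 0.45) were not separated beyond their spread. These differences use gene levels that include incomplete and noncoding models. Over complete coding models alone, Adgre1 had 522 ± 64.7 TPM, Aif1 217 ± 25.5, Csf1r 115 ± 15.3, Maf 80.1 ± 7.02 and Spi1 72.3 ± 6.15. Adgre1 and Aif1 then lay further apart, Aif1 and Csf1r closer, and the mean of Maf above that of Spi1. The rule was not applied to those levels. The order of Cebpa and Mitf turned round to -0.069 without replicate 3. Csf1r and Spi1 (0.50) and Spi1 and Maf (0.28) were separated without replicate 2, and Fli1 and Cebpa (0.72) without replicate 3. With a replicate left out, here and below, the rule asked for 1 sign in the remaining libraries only and took the SD from those, so such calls are weaker. Replicate 2 was the library in which Csf1r minus Spi1 had the opposite sign, at -0.084.

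Csf1r (ENSMUSG00000024621.16; mm10 chromosome 18, 61100598 to 61132149, plus strand) had 135, 101 and 155 TPM in replicates 1, 2 and 3. Replicate 2 was the lowest and replicate 3 the highest, with a ratio of 1.53 between them. The same gene in CPM (counts scaled by library size with TMM, with no length term) had 886, 742 and 884, so that replicates 1 and 3 were nearly level and the largest ratio was 1.19. TPM divides each transcript's count by its length, and a short model of 416 bases, Csf1r-205, took 5.84%, 3.39% and 22.8% of the gene's TPM in replicates 1, 2 and 3. In the kallisto-layout table the same model took 26.4%, 29.3% and 32.8%, so there its share was large in every library. Csf1r-205 is marked as incomplete in the annotation, and all but 2 of its bases also lie in the full-length model Csf1r-201. Over the 2 complete coding models alone, Csf1r had 127, 97.6 and 119 TPM, with a largest ratio of 1.30.

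The 2 deposited quantifications placed the Csf1r reads in different full-length models. Csf1r-201 held 64.4 ± 2.99% of the gene's TPM in the kallisto-layout table and 28.1 ± 13.1% in the RSEM-layout table. Csf1r-202 held 5.51 ± 0.359% in the kallisto-layout table and 61.0 ± 10.1% in the RSEM-layout table. Both are complete coding models, and Csf1r-202 has 1015 bases that Csf1r-201 lacks, all at its longer 3′ end. Of these, 873 are also exon of Hmgxb3, a gene on the opposite strand with 3.49 ± 0.395 TPM. Whether counting used strand is not given in the sources used here, so reads from these 873 bases cannot be assigned to either gene with certainty. The posterior SD of the expected count, given with the RSEM-layout values, was 435, 642 and 624 counts for Csf1r-202, against at most 3.12 counts for the whole gene. Csf1r-202 had 14900, 32356 and 35144 counts in replicates 1, 2 and 3, so this SD is small beside the difference between the 2 tables.

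**Figure D2:**
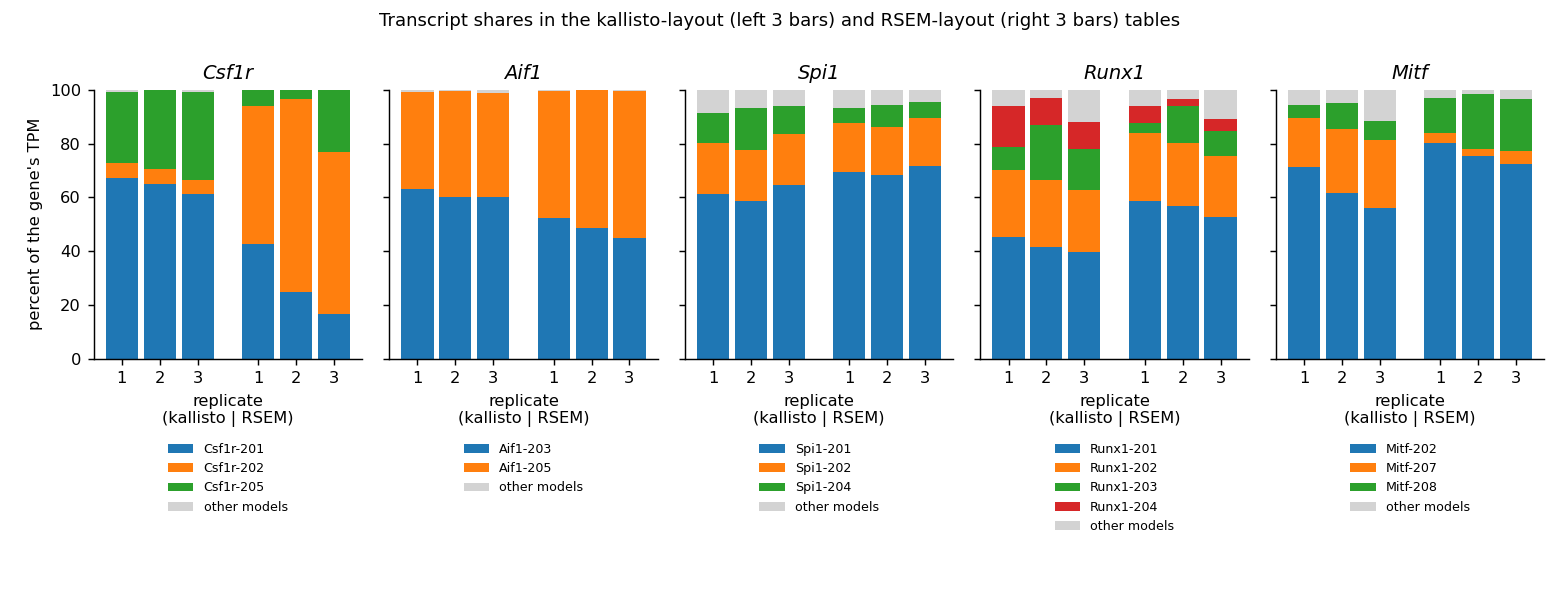
Share of each gene's TPM (y axis, percent) by transcript model, for replicates 1, 2 and 3 in the kallisto-layout table (left 3 bars) and the RSEM-layout table (right 3 bars). Csf1r changes its leading model between the tables, Csf1r-201 at 64.4% in one and Csf1r-202 at 61.0% in the other, and Aif1 does so in its mean shares, within their spread.

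Among ligands of the receptor, Csf1 had 22.1, 15.3 and 8.74 TPM in replicates 1, 2 and 3, and Il34 had 0 counts throughout, a value that permits as many as 3. Csf1 was highest in replicate 1 and lowest in replicate 3. Csf1r exceeded its ligand gene Csf1 by 3.07 ± 0.81 and the GM-CSF receptor alpha chain gene Csf2ra by 2.29 ± 0.35 on the log2(TPM + 1) scale, and both differences were called. Of 10 ligands and related receptors 5 were detected, and the 3 highest were the shared beta chain gene Csf2rb (30.9 ± 1.54 TPM), its close copy Csf2rb2 (29.8 ± 3.50 TPM) and the G-CSF receptor gene Csf3r (29.5 ± 7.13 TPM). Csf2rb and Csf2rb2 are closely similar in sequence, so the division of reads between them is uncertain. The other class III receptor kinase genes Kit, Flt3, Pdgfra and Pdgfrb were all under 1 TPM. All 9 signalling partners on a fixed list were detected, from the adaptor gene Tyrobp (635 ± 80.6 TPM), Grb2 (139 ± 11.0 TPM) and the phosphatase gene Ptpn6 (119.6 ± 2.04 TPM) down to the exchange factor gene Sos1 (3.91 ± 0.403 TPM).

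Over the 3 libraries the protein-coding genes whose levels lay closest to those of Csf1r were Arap1, Slc6a6 and Cd300ld3, with root mean square differences of 0.10, 0.11 and 0.12 in log2(TPM + 1). Arap1 had 124, 98.5 and 143 TPM in replicates 1, 2 and 3, Slc6a6 had 146, 111 and 149 TPM, and Cd300ld3 had 129.6, 111 and 139 TPM. Slc6a6 encodes a taurine transporter and Arap1 a regulator of small GTPases. With 3 libraries of 1 group, this likeness describes similar levels, and the low in replicate 2 that these genes have in common follows from how they were chosen. The Csf1r levels that were matched include the share of Csf1r-205 in replicate 3.

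Adgre1 (ENSMUSG00000004730.15; chromosome 17, 57358691 to 57483527, plus strand) encodes F4/80, the adhesion receptor by which mouse macrophages are usually sorted. It had 607, 570.2 and 718 TPM in replicates 1, 2 and 3. Replicate 3 was the highest, also in CPM, with 2589, 2536 and 3069. Adgre1 accounted for 98.2 ± 0.223% of the TPM of the 3 annotated genes of its family on the list, and exceeded Adgre5, which encodes CD97, by 5.77 ± 0.17 log2 units. Its main model Adgre1-202 held 76.3 ± 0.216% in the kallisto-layout table and 77.8 ± 0.876% in the RSEM-layout table. An incomplete model of 342 bases, Adgre1-204, with 0 bases of its own, held 15.5 ± 0.556% and 15.2 ± 0.938% in the same tables.

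Aif1 (ENSMUSG00000024397.14; chromosome 17, 35170991 to 35176068, minus strand) encodes IBA1, an actin-bundling calcium-binding protein used to stain macrophages and microglia. It had 451, 385 and 498 TPM in replicates 1, 2 and 3, with replicate 2 lowest and replicate 3 highest. Its relative Aif1l had 0 counts in every library. A model annotated as retained intron, Aif1-205, held 36.1%, 39.5% and 38.6% of the gene's TPM in replicates 1, 2 and 3 in the kallisto-layout table, and 47.4%, 51.2% and 54.6% in the RSEM-layout table. The coding model Aif1-203 held 63.2%, 60.04% and 60.3% in replicates 1, 2 and 3 in the kallisto-layout table, and 52.2%, 48.6% and 44.9% in the RSEM-layout table. Aif1-203 thus led in every library of the kallisto-layout table and in replicate 1 of the RSEM-layout table, where the mean shares of Aif1-203 (48.6 ± 3.64%) and Aif1-205 (51.0 ± 3.602%) lay within their spread. Of 462 bases in Aif1-205, 54 are intron with respect to Aif1-203 and lie at mm10 chr17:35171805-35171858 on the minus strand. They are the bases that Aif1-205 has and Aif1-203 lacks, whereas Aif1-203 has 434 that Aif1-205 lacks. They are shown in capitals, followed in lower case by the first 42 bases of the coding exon that both models hold.
Aif1-205: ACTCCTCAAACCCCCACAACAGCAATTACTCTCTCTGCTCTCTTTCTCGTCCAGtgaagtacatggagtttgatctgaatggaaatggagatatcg
The capitals end in AG, the dinucleotide at the 3′ end of most introns, where the lower-case exon begins. None of the bases of Aif1-205 is absent from every other model of the gene, so its share rests on how reads were divided and not on bases of its own. Retained-intron models held at least 10% of the TPM in 1 of the 4 members that have such a model, against 16.5% of detected protein-coding genes that have one. Complete coding models alone gave Aif1 237, 188 and 225.5 TPM in replicates 1, 2 and 3.

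Spi1 (ENSMUSG00000002111.8; chromosome 2, 91082390 to 91115756, plus strand) encodes PU.1. It had 94.9, 107 and 109 TPM in replicates 1, 2 and 3, and the lowest was replicate 1. Spi1 led the 19 ETS-family genes on the list, of which 15 were detected, with 35.1 ± 3.25% of their summed TPM. It exceeded Fli1 by 2.04 ± 0.14, Ets2 by 4.13 ± 0.37 and Irf8, the gene of an interferon regulatory factor that binds DNA together with PU.1, by 1.01 ± 0.18 log2 units, and all of these differences were called. Of its closest relatives, Spib, which acts in B cells and plasmacytoid dendritic cells, stayed at 0.23 ± 0.066 TPM, and Spic, known from red pulp macrophages, reached 5.01 ± 0.576 TPM. Etv3, a repressor, was second in the family at 47.6 ± 9.39 TPM, and Erf was the lowest detected member at 3.31 ± 0.363 TPM.

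The coding model Spi1-201 held 61.4 ± 2.98% of Spi1 TPM in the kallisto-layout table and 69.7 ± 1.68% in the RSEM-layout table. A processed transcript without a coding part, Spi1-202, held 19.1 ± 0.0603% and 18.1 ± 0.117% in the same tables. It starts 18 bases from the first annotated start of the gene, whereas Spi1-201 starts 13706 bases from it, and the 2 share 0 exon bases. Together with Spi1-204, an incomplete coding model, transcripts from the upstream start held 31.4 ± 2.82% in the kallisto-layout table and 24.7 ± 1.32% in the RSEM-layout table. Both tables thus placed a sizeable part of Spi1 TPM outside the main start. Spi1-202 and Spi1-204 are short, 613 and 544 bases against 2034 in Spi1-201, and TPM divides by length. In the RSEM-layout table Spi1-202 had 316, 761 and 654 counts in replicates 1, 2 and 3, and Spi1-204 had 82, 280 and 176. The whole gene had 6134, 14382 and 12842 counts, so the upstream share of reads was smaller than that of TPM. The complete coding model alone gave 72.3 ± 6.15 TPM.

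Fli1 (ENSMUSG00000016087.13; chromosome 9, 32422204 to 32542861, minus strand) encodes an ETS factor of blood stem cells, megakaryocytes and endothelium that is also made in myeloid cells. It had 25.1, 23.45 and 24.7 TPM in replicates 1, 2 and 3. After TMM scaling the 3 libraries had 130.4, 128.7 and 129.6 CPM, a coefficient of variation of 0.663%, the smallest of the 9 genes and below the counting error of 1.65% in the shallowest library. Fli1 ranked 3 among the ETS genes with 8.24 ± 0.0954% of their TPM. Its closest relative Erg had 0, 0 and 1 counts in replicates 1, 2 and 3. The model Fli1-201 held 98.0 ± 0.615% in the kallisto-layout table and 99.5 ± 0.238% in the RSEM-layout table. Of the megakaryocyte markers, Itga2b, Gp9, Gp1bb and Ppbp were under 1 TPM in every library, and Pf4 had 117, 85.7 and 70.2 TPM in replicates 1, 2 and 3. Of the endothelial markers, Pecam1 and Cdh5 were under 1 TPM, and Kdr had 7.26, 3.01 and 2.47 TPM. Pf4 and Kdr were both highest in replicate 1, and their part in the Fli1 values was not tested.

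Cebpa (ENSMUSG00000034957.10; chromosome 7, 35119293 to 35121928, plus strand) encodes C/EBP alpha, which is needed for the step from common progenitors to granulocyte and monocyte progenitors. It had 13.7, 14.98 and 24.2 TPM and 53.2, 62.0 and 97.7 CPM in replicates 1, 2 and 3. Replicate 3 stood apart from the other 2 libraries, and the ratio of highest to lowest was 1.84 in CPM. Neutrophil and precursor markers summed to 7.08, 10.6 and 9.32 TPM in replicates 1, 2 and 3. In replicate 3 the precursor genes Mpo and Elane had 12 and 7 counts, against 3 and 0 in replicate 1 and 2 each in replicate 2. Ngp and Ltf were also highest in replicate 3, with 50 and 13 counts, whereas Prtn3 (2, 15 and 6 counts), Camp (2, 13 and 5), S100a8 (43, 100 and 75) and S100a9 (43, 172 and 119) were highest in replicate 2. Their part in the Cebpa values was not tested. Cebpb, the gene of the C/EBP factor most used in inflammatory macrophages, had 59.55, 27.7 and 44.6 TPM. Cebpa lay below Cebpb in all 3 libraries. The log2 differences were -2.04, -0.85 and -0.86 in replicates 1, 2 and 3, and their mean of -1.25 ± 0.69 was not called. Without replicate 1 it was -0.85 and was called. Cebpa made up 25.4 ± 7.91% of the TPM of 5 C/EBP genes, ranging between 16.4% in replicate 1 and 31.2% in replicate 3. The C/EBP-related stress factor gene Ddit3, not among those 5, had 114 ± 15.8 TPM, and Cebpd was the lowest detected at 2.47 ± 0.450 TPM.

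Maf (ENSMUSG00000055435.6; chromosome 8, 115682942 to 115707794, minus strand) encodes c-MAF, a large MAF factor that limits self-renewal of mature macrophages. It had 80.6, 72.9 and 86.9 TPM in replicates 1, 2 and 3, the lowest in replicate 2 and the highest in replicate 3. The small MAF genes Mafg (11.2 ± 0.516 TPM) and Mafk (7.26 ± 1.09 TPM) were detected. Maff was under 1 TPM in replicate 3 alone, and the large MAF genes Mafa and Nrl, of beta cells and retina, were at or near 0. Maf-202 held 84.1 ± 1.97% in the kallisto-layout table and 83.0 ± 1.92% in the RSEM-layout table. An antisense gene within Maf, Gm15655, had 42.5 ± 8.23 TPM from 466, 1065 and 624 counts in replicates 1, 2 and 3, where Maf itself had 21422, 40571 and 41521 counts, and without known strand these reads cannot be told apart.

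**Figure D3:**
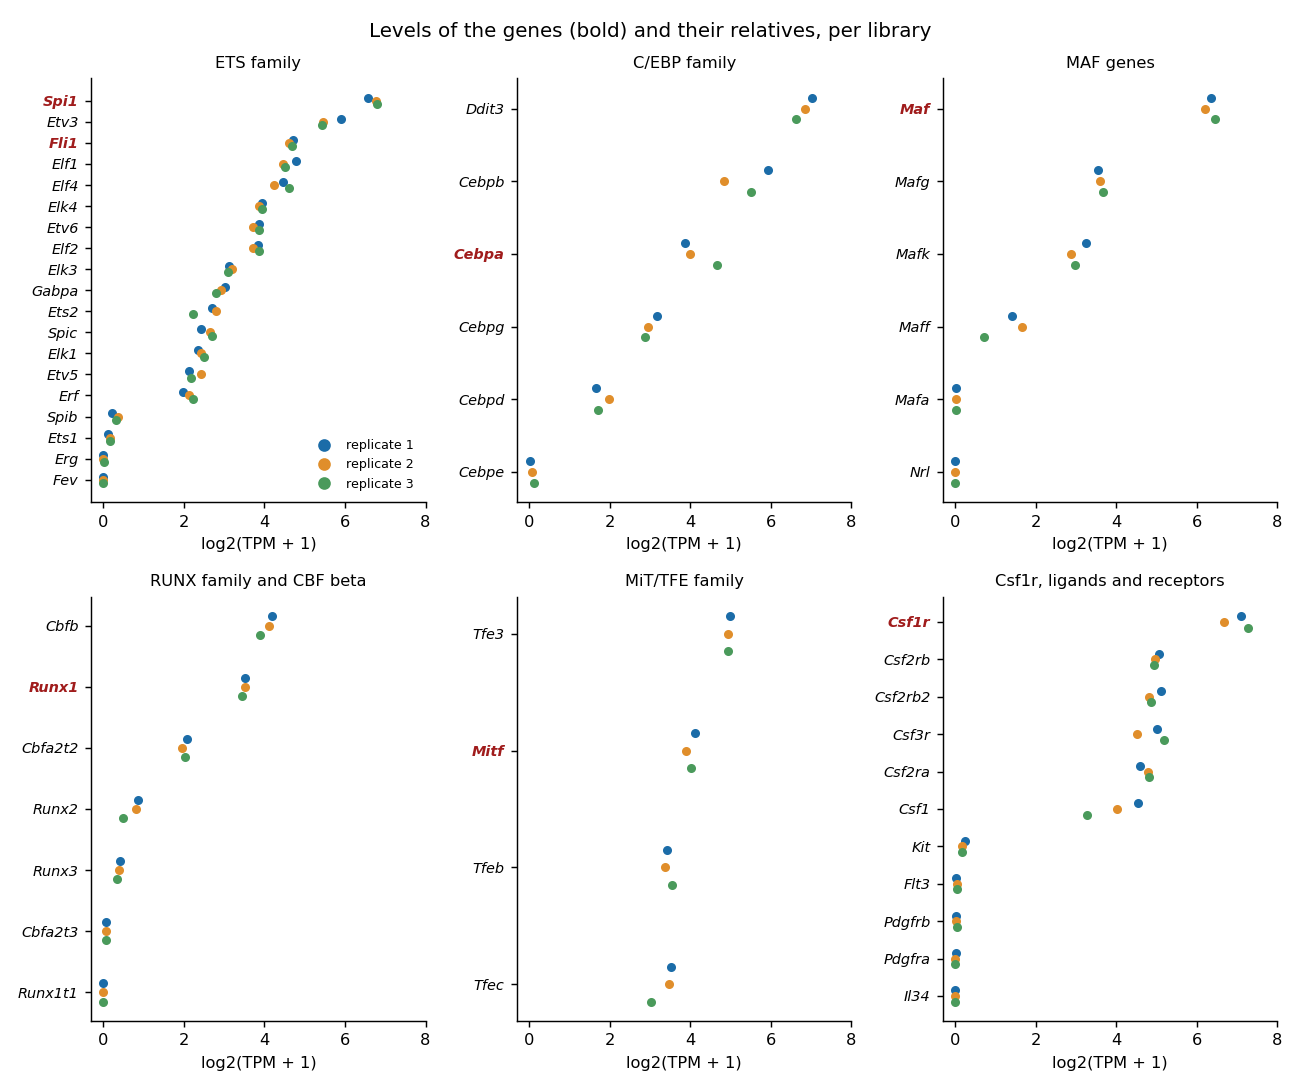
Levels of the 9 genes' relatives as log2(TPM + 1) on the x axis, 1 point per library and colours for replicates, ordered by mean within each family, with the described genes in bold red. Spi1 leads the ETS family, Runx1 lies far above Runx2 and Runx3, and Cebpa lies below Cebpb in every library.

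Runx1 (ENSMUSG00000022952.17; chromosome 16, 92601466 to 92826149, minus strand) encodes a DNA-binding partner of CBF beta that is needed for definitive blood formation and is kept on in myeloid cells. It was the lowest of the 9 genes and varied little in TPM, with 10.5, 10.5 and 9.79 TPM in replicates 1, 2 and 3. Runx1 made up 91.5 ± 1.90% of the TPM of the 3 RUNX genes. Runx2 had 0.66 ± 0.23 TPM and Runx3 0.307 ± 0.0351 TPM, and Runx1 exceeded Runx3 by 3.11 ± 0.024 log2 units, a called difference. The gene of its partner, Cbfb, had 15.8 ± 1.77 TPM, and Cbfa2t2, a corepressor gene of the ETO family, 3.06 ± 0.155 TPM, whereas its relative Runx1t1 had 0 counts.

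Runx1 is transcribed from a distal and a proximal promoter, and the proteins differ at their N termini. Models from the distal start held 64.1%, 53.5% and 55.4% of Runx1 TPM in replicates 1, 2 and 3 in the kallisto-layout table, and 68.1%, 61.5% and 62.9% in the RSEM-layout table. Models from proximal starts, 128821 to 130654 bases downstream, held 42.3 ± 5.62% in the kallisto-layout table and 35.8 ± 3.46% in the RSEM-layout table. The distal start led in every library of both tables. Its models include Runx1-204, an incomplete one of 336 bases. Runx1-204 held 15.4%, 9.96% and 10.2% in replicates 1, 2 and 3 in the kallisto-layout table, but had only 3, 3 and 5 counts in the RSEM-layout table. In replicate 2 of the kallisto-layout table the other distal models, Runx1-201 (41.7%) and Runx1-207 (1.82%), stood against 46.5% from proximal starts. The distal lead there thus depends on Runx1-204. The distal share rests mainly on Runx1-201, which also runs further at its 3′ end and has 2265 bases found in no other model, so reads there count toward it wherever transcription began. The first coding bases are shown because they are what the proteins do not share. Capitals mark the opening coding bases that only 1 of the 2 models has, and lower case the 15 coding bases after them, which are common to both.
Runx1-201, distal: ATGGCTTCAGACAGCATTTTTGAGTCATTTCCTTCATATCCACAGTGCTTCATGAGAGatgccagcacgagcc
Runx1-202, proximal: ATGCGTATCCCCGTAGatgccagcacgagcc
The distal model has 58 coding bases of its own before the shared frame and the proximal one 16, and the whole coding parts are 1395 and 1161 bases. Runx1-202 also lacks an internal exon of 192 bases, visible in the map, that Runx1-201 and Runx1-203 hold. The sequences before the 2 starts, from RefSeq (GRCm38.p6, the assembly that mm10 names, minus strand), are given up to the first annotated exon, at chr16:92826150-92826324 and chr16:92697330-92697579. Capitals mark matches to any of 4 motifs searched on both strands: GAGGAA (the core bound by PU.1 and other ETS factors), TGTGGT (RUNX), CATGTG (an E-box bound by MITF and its relatives) and TTGCNNAA (C/EBP).
Runx1 distal start: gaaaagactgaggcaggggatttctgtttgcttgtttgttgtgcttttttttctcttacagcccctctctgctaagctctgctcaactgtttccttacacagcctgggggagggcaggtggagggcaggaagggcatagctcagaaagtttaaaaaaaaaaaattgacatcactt
Runx1 proximal start: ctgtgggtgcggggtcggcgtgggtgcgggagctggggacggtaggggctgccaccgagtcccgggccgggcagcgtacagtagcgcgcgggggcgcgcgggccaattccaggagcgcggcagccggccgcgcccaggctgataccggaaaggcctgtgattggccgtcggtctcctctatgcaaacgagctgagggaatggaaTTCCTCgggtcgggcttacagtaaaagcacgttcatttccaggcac
The distal window of 175 bases had 0 CG dinucleotides and a GC content of 45.1%, and the proximal window of 250 bases had 27 CG dinucleotides and a GC content of 67.6%. The distal window held 0 of the 4 motifs. The proximal one held 1 match, to GAGGAA on the other strand, a motif found in 23.3% of 32851 promoter windows of the same length.

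Mitf (ENSMUSG00000035158.15; chromosome 6, 97807052 to 98021349, plus strand) encodes a basic helix-loop-helix leucine zipper factor that drives lysosomal and osteoclast genes in the monocyte lineage and pigment genes in melanocytes. It had 16.3, 13.9 and 15.1 TPM in replicates 1, 2 and 3, the highest in replicate 1. All 4 MiT/TFE genes were detected. Tfe3 was the highest, at 30.2 ± 0.525 TPM, Mitf was second with 23.5 ± 1.22% of their TPM, and Tfeb (9.87 ± 0.665 TPM) and Tfec (9.22 ± 1.83 TPM) followed. Mitf exceeded the macrophage-restricted Tfec by 0.67 ± 0.28 log2 units, which was not called, although the 0.51 left without replicate 3 was. Of 6 osteoclast markers, a list that includes genes which MITF and PU.1 activate together in osteoclasts, only Acp5 was detected, at 8.44, 6.81 and 15.1 TPM in replicates 1, 2 and 3.

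Mitf has several alternative first exons, of which the last is used in melanocytes. The first start held 91.9%, 86.2% and 84.8% of Mitf TPM in replicates 1, 2 and 3 in the kallisto-layout table, and 86.1%, 78.6% and 79.7% in the RSEM-layout table. The last start, at least 184740 bases downstream, held 10.05 ± 2.79% in the kallisto-layout table and 17.8 ± 4.09% in the RSEM-layout table, and the middle starts 2.30 ± 1.78% and 0.709 ± 0.279%. The share of the last start came mostly from Mitf-208, a model of 1074 bases of which 33 are absent from the main model Mitf-202. The melanocyte markers Tyr, Tyrp1 and Sox10 had 0 counts, Dct had 0, 1 and 1 counts, Pmel 4, 11 and 15 counts and Mlana 5, 4 and 3 counts in replicates 1, 2 and 3. The first coding bases of the 3 kinds of model are shown, since these set them apart. Capitals mark coding bases that are not in the model compared (Mitf-201 for Mitf-202, and Mitf-202 for the other 2), and lower case the shared coding bases that follow. For Mitf-202 the first 60 of 354 such bases are given.
Mitf-202, first start: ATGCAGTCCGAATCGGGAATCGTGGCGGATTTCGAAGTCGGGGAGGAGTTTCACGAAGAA
Mitf-203, middle start: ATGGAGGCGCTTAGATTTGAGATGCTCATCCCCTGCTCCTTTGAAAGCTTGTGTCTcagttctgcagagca
Mitf-201, last start: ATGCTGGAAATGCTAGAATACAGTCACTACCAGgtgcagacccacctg
Mitf-201 has 33 coding bases of its own, and Mitf-208, which holds the same coding start, likewise has 33 bases that Mitf-202 lacks. Mitf-208 also ends an internal exon earlier than Mitf-202 and begins another later. Reads across those joins of exons can count toward Mitf-208 wherever transcription began. The share given to the last start thus rests on few bases at the start and on these joins. The upstream RefSeq sequences on the plus strand, at chr6:97806808-97807051 for the first start and chr6:97991533-97991782 for the last, follow with the same 4 motifs in capitals.
Mitf first start: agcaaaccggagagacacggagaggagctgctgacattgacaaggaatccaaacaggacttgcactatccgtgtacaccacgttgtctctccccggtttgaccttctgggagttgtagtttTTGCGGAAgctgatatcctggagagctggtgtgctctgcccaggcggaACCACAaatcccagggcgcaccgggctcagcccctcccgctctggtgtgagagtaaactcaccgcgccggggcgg
Mitf last start: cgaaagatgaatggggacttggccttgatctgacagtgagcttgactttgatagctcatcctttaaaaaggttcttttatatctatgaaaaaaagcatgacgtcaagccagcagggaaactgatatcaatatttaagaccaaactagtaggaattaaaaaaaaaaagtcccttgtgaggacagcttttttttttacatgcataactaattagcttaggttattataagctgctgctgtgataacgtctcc
The window before the first start held 1 match to TTGCNNAA, found in 9.40% of promoter windows cut in the same way, and 1 to TGTGGT on the other strand, found in 13.8%. The window before the last start held 0 of the 4 motifs, which says only that these letters are not in it. GC content was 58.6% before the first start and 36.0% before the last.

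**Figure D4:**
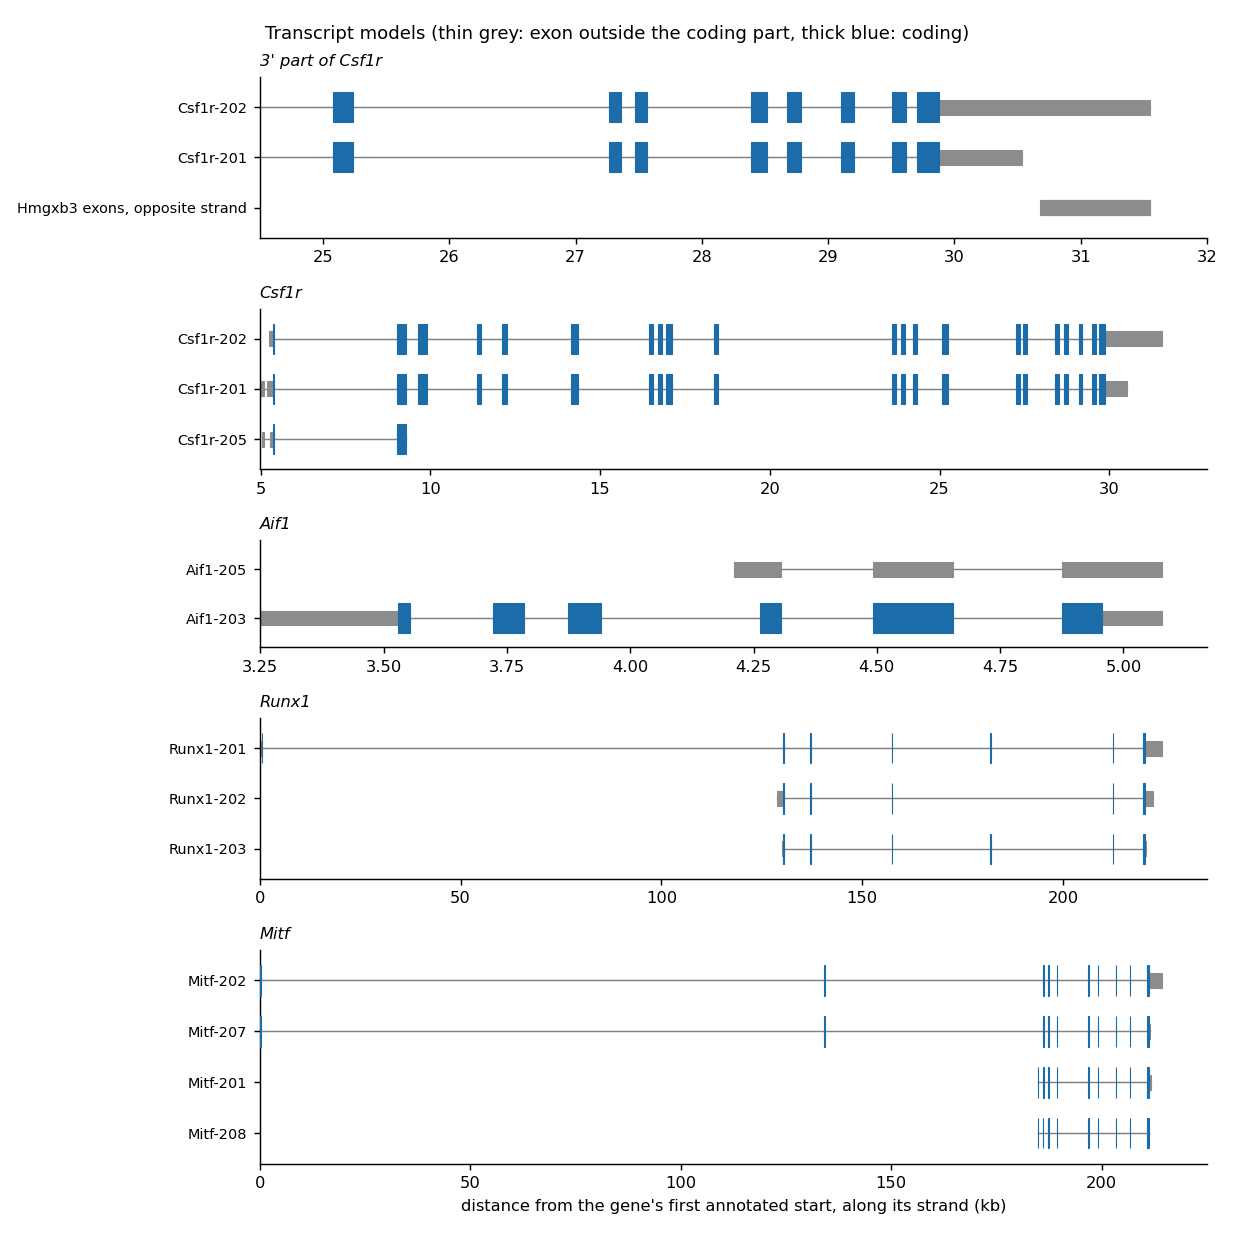
Transcript models of Csf1r (3′ part and whole), Aif1, Runx1 and Mitf by distance from the gene's first annotated start in kilobases, with coding exons in thick blue and other exon parts in thin grey. Csf1r-202 runs past the end of Csf1r-201 into bases shared with Hmgxb3, and the Runx1 and Mitf models differ in where they start.

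The members were also compared with genes of neighbouring roles. Of 14 other macrophage transcription factors 12 were detected, led by Zeb2 (110.5 ± 12.7 TPM), Id2 (100.0 ± 23.4 TPM) and Irf8 (51.3 ± 7.26 TPM), with Bhlhe40 the lowest detected at 1.76 ± 0.548 TPM. Klf4 and Myb were not detected in every library. Of 12 factors of other blood lineages 1 was detected, Tal1 at 1.48 ± 0.337 TPM. Gata1, Gata2, Gata3, Klf1, Pax5 and Ebf1 had at most 5 counts in any library. Of the 9 pairs reported here of a member with a relative or partner, 7 differences were called, and the member was the higher gene in all 7.

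Replicates differed in 8 of the 9 genes by more than counting error, in a chi-square test of the rounded counts given TMM library sizes with Benjamini-Hochberg adjustment. That was the case for 64.8% of 13403 tested genes, so the members' count is read against that share. Without replicate 3, 5547 genes varied in this way, against 8689 with all libraries. Of the members, 6 passed without replicate 1, 7 without replicate 2 and 7 without replicate 3. The shares of all tested genes that passed in those settings were 51.6%, 44.4% and 42.5%. Spi1 and Mitf lost the call without replicate 1 (adjusted p of 0.31 and 0.50 in the chi-square test), Csf1r without replicate 2 (adjusted p of 0.77) and Runx1 without replicate 3 (adjusted p of 0.39). Fli1 was the exception, with an adjusted p of 0.82 by this test. On the kallisto-layout counts it too passed, with an adjusted p of 0.0085 in the same test, and 69.8% of 16164 tested genes passed there. The largest adjusted p among the other 8 was 6.7e-11, for Runx1, whose highest and lowest CPM differed only 1.16-fold, and at this depth such small differences pass. The biological coefficient of variation estimated by edgeR lay under its trend in 8 of the 9 members, against 77.2% of detected nuclear protein-coding genes. Cebpa was the exception, at 19.5% against a trend of 11.5%.

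In replicate 1, 1 of the 9 genes deviated over 1.5-fold from the mean of the other libraries, against 10.4% of all tested genes. This was Cebpa, with a log2 ratio of -0.59, just past the limit of 1.5-fold. In replicate 2 the count was 0 of 9, against 12.3% of all genes. In replicate 3 it was 1 of 9, again Cebpa, with a log2 ratio of 0.76, against 13.6% of all genes. In replicate 3, 7 of the 9 genes were higher than in the other libraries and 2, Mitf and Runx1, were lower, although Fli1 was higher by only 7.3e-04 log2 units. Of all tested genes 50.4% were higher in replicate 3. In the kallisto-layout counts, scaled with TMM in the same way, 6 of the 9 genes were higher, against 51.2% of all tested genes. In kallisto-layout TPM, by contrast, 8 of the 9 genes were lowest in replicate 3, as were 95.2% of detected nuclear protein-coding genes, and Cebpa was the exception. In the TMM-scaled RSEM-layout counts, the median log2 ratio of replicate 3 to the other libraries was 0.13 over the members. Over all tested genes that median was 0.0022.

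**Figure D5:**
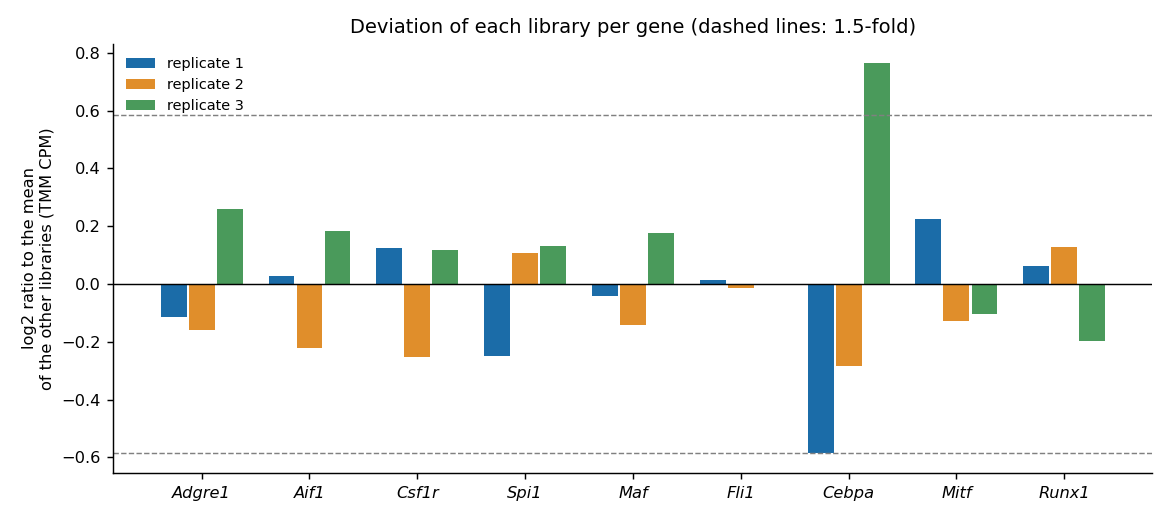
log2 ratio of each library to the mean of the other 2 (y axis, TMM-scaled CPM) for each gene, with colours for replicates and dashed lines at 1.5-fold. Cebpa in replicate 3, at 0.76, is the only value well past a line, and Fli1 lies between -0.015 and 0.014.

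All 9 genes were lower in the kallisto-layout table than in the RSEM-layout table, as were detected genes in general, whose median log2 ratio was -0.86, -0.75 and -1.23 in replicates 1, 2 and 3. Adgre1 averaged 269 ± 30.9 TPM in the kallisto-layout table and 632 ± 76.8 TPM in the RSEM-layout table, and Runx1 5.34 ± 1.30 TPM and 10.3 ± 0.407 TPM. After that median was taken off, 0 of the 9 genes differed over 2-fold in every library, against 1.28% of detected genes. Aif1 lay lowest, at -0.35 ± 0.14, and Csf1r highest, at 0.19 ± 0.18. Cebpa differed by -0.16, -0.14 and -0.26 in replicates 1, 2 and 3. In kallisto-layout TPM it had 6.24, 7.62 and 7.97 in the same order. The part of the quantification in its high level in replicate 3 was not tested. The leading transcript model differed between the tables in 2 of the 9 genes, Csf1r and Aif1, against 10.1% of detected protein-coding genes with several models. Without replicate 3 the count was 1, since Aif1-203 then led in both tables.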

How the data were processed

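The members and gene lists were chosen with earlier results of these data known. The RSEM-layout tables, deposited per gene and per transcript, give for each row an expected count, its posterior SD and TPM, per the file headers. The kallisto-layout table, deposited per transcript, gives an estimated count and TPM, per its header, and was summed here over each gene's transcripts. Both tables were deposited for each of the same 3 libraries. The accompanying deposited text names mm10 and GENCODE M21. The sources used here do not give versions of aligner and quantifier or the strand setting. Rows without an annotated gene, left out here, took between 0.167% (replicate 3) and 0.774% (replicate 1) of expected counts. Depth was 28759407, 54709008 and 49878183 expected counts. Limits drawn from counts cover counting error alone. The shallowest library had a counting error of 0.370% for Adgre1 and 2.58% for Cebpa. SDs are over 3 libraries that share a donor entry, so they and the p-values measure a spread between samples that may be technical.

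Expected counts were rounded to whole numbers and scaled by TMM in edgeR 4.0.16 (R 4.3.3). Dispersions came from an intercept-only fit after filterByExpr (12738 genes). With 1 group there is no contrast, so the tests were a chi-square test of homogeneity (mean count 10 or more), and within-library differences of log2(TPM + 1), a scale that understates differences of low genes. Transcript shares are percent of a gene's summed TPM, computed from the deposited TPM. Alternatives were DESeq2 1.42.0 size factors, library totals, no low-count filter, pseudocount 0.1, detection at 0.1 TPM, rescaling TPM to nuclear protein-coding genes, the kallisto-layout table and leaving out each replicate. Complete coding models alone, and the direction of replicate 3 in the kallisto-layout table, were added after seeing the data. The methods were tested on simulated data. Other steps ran under Python 3.11.15 with scipy 1.17.1, numpy 2.4.6 and pandas 2.3.3. Promoter windows came from RefSeq, where 4 of the 9 genes had an entry, and coding bases from GENCODE M21 transcripts.

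Named genes are the 9 members, of each list up to 3 detected genes with the highest mean TPM and the lowest detected, the relatives in fixed pairs, the 3 genes closest to Csf1r in level, and transcripts with at least 10% of a gene's TPM. Other list genes, Hmgxb3, Gm15655 and Mitf-203 and Mitf-201 were named after their values were seen. Ddit3 has more than 1 gene identifier, and the first was used. Some listed genes are not reported here.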

Additional observations from a re-analysis of the deposited data

How the results depend on the processing

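Leaving out each replicate gave between 5547 (without replicate 3) and 7086 genes that varied beyond counting error, against 8689 with all libraries, and fewer libraries were tested. With no filter on low counts, 8374, 8643 and 8819 genes deviated over 1.5-fold in replicates 1, 2 and 3, against 1391, 1650 and 1819, with 21981 genes tested in place of 13403. The difference of Cebpa and Mitf ran between -0.069 (without replicate 3) and 0.37 when a replicate was left out. That of Cebpa and Cebpb ran between -1.45 and -0.85, and was called at -0.85 without replicate 1. That of Mitf and Tfec ran between 0.51 and 0.79, and was called at 0.51 without replicate 3. Csf1r and Spi1 (0.50) and Spi1 and Maf (0.28) were separated without replicate 2, and Fli1 and Cebpa (0.72) without replicate 3. Calls with a replicate left out rest on the sign and SD of the remaining libraries only. The number of members whose leading model differed between the tables ran between 1, without replicate 3, and 2. The causes were not tested. In the kallisto-layout table Fli1 varied beyond counting error, with an adjusted p of 0.0085 in the chi-square test, so all 9 members did. Of all 16164 genes tested in that table, 69.8% did so too. Levels of all 9 members moved by more than 1 SD in that table and after rescaling to nuclear protein-coding genes, where Csf1r averaged 447 TPM. Of the values recomputed under alternatives, 224 were classed as the same, 45 as moved, 5 as newly called and 1 as reversed. For levels and differences, the same means that direction and call were kept or that the move was less than the spread. For counts of genes or pairs it does not mean an equal count, and the 7086 varying genes without replicate 1, against 8689, were classed as the same. Depth limits genes of low count most in replicate 1, and transcript shares are limited by models that share nearly all their bases. No paired analysis was possible because the labels give a single group.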
